A study of Mus musculus with 12 samples.

Results

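The effect of 7 days of high-fat feeding on liver mRNA was examined in mice whose methionine was not restricted, by comparing 3 mice of the HF.Ctrl group with 3 mice of the RF.Ctrl group. These 6 libraries are part of a series of 12, in which 3 RF.SAAR and 3 HF.SAAR mice ate diets low in methionine. The mice were put into these groups by their diet labels. All were male C57Bl/6J mice aged 5 to 6 months, housed singly and deprived of food for 4 h before tissue was taken. The paper states that the mice were given deuterium-labelled water, by injection and to drink. Each library is the liver of a separate mouse. All 4 diets lacked cysteine, so the RF.Ctrl and HF.Ctrl mice also ate no cysteine, while the methionine content of their diets was at the control level. Fat gave 18% of the energy in the RF diets and 60% in the HF diets. The paper states that mice on a high-fat diet ate fewer grams of food and so took in less of all essential amino acids. The RF and HF diets also came from different vendors. Fat content, the carbohydrate it replaced, amino acid intake and other differences between the 2 sources thus cannot be told apart.

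The liver makes fatty acids from sugar when carbohydrate is plentiful. Citrate is split into acetyl-CoA, acetyl-CoA is carboxylated to malonyl-CoA, and fatty acid synthase, elongases and desaturases build and finish the chains with NADPH from malic enzyme and the pentose phosphate path. The factors SREBP1c, which responds to insulin, and ChREBP, which responds to sugar, drive these genes, and dietary polyunsaturated fat is known to restrain them. Incoming fatty acids also bind PPARα, a nuclear receptor whose targets carry out mitochondrial, peroxisomal and microsomal fatty acid oxidation.

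Total estimated counts ranged from 16203094 to 21230092 per mouse. The summed level of pancreatic acinar genes, given here as CPM with libraries scaled to each other (normalized CPM), was 1882 in RF.Ctrl 1, 2155 in HF.Ctrl 1 and 7910 in HF.Ctrl 2, against 87.5 to 95.3 in the other control mice. The 51 acinar genes with counts were set aside before scaling, and values without the mice above 1000 are given below, where HF.Ctrl 3 alone, compared with RF.Ctrl 2 and 3, is assumed to vary like the other groups. Hepatocyte genes summed to 116588 to 131733 normalized CPM in RF.Ctrl and to 110807 to 125296 in HF.Ctrl mice. The median standard error of a log2 fold change was 0.168 over the 12754 genes with a mean of at least 1 normalized CPM.

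The genes with the smallest p were lower in HF.Ctrl mice, with Acacb and Scd1 of the fatty acid synthesis list first. Oxidation genes and PPARα targets had medians slightly above 0 and no member called by edgeR or DESeq2. By edgeR's quasi-likelihood test with Benjamini-Hochberg adjustment, 0 of 14628 genes (0%) passed an adjusted p of 0.05. The smallest adjusted p was 0.0704, and all 8 genes with an adjusted p under 0.2 were lower in HF.Ctrl mice. At an unadjusted p under 0.05, 222 genes (1.52%) were higher and 299 (2.04%) lower in HF.Ctrl and 521 (3.56%) in all differed either way. With scaling by library size alone the split was 121 higher and 446 lower. In 603 genes (4.12%) all HF.Ctrl mice lay above all RF.Ctrl mice, and in 648 (4.43%) all lay below. The counts of the gene lists below are to be read beside these shares over all genes. DESeq2, the tool named in the study's methods, called 5 genes higher (0.0343% of 14593) and 26 lower (0.178%) at an adjusted p of 0.05, and limma voom called 0. Leaving out 1 mouse at a time, edgeR called 0 to 2 genes.

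**Figure D1:**
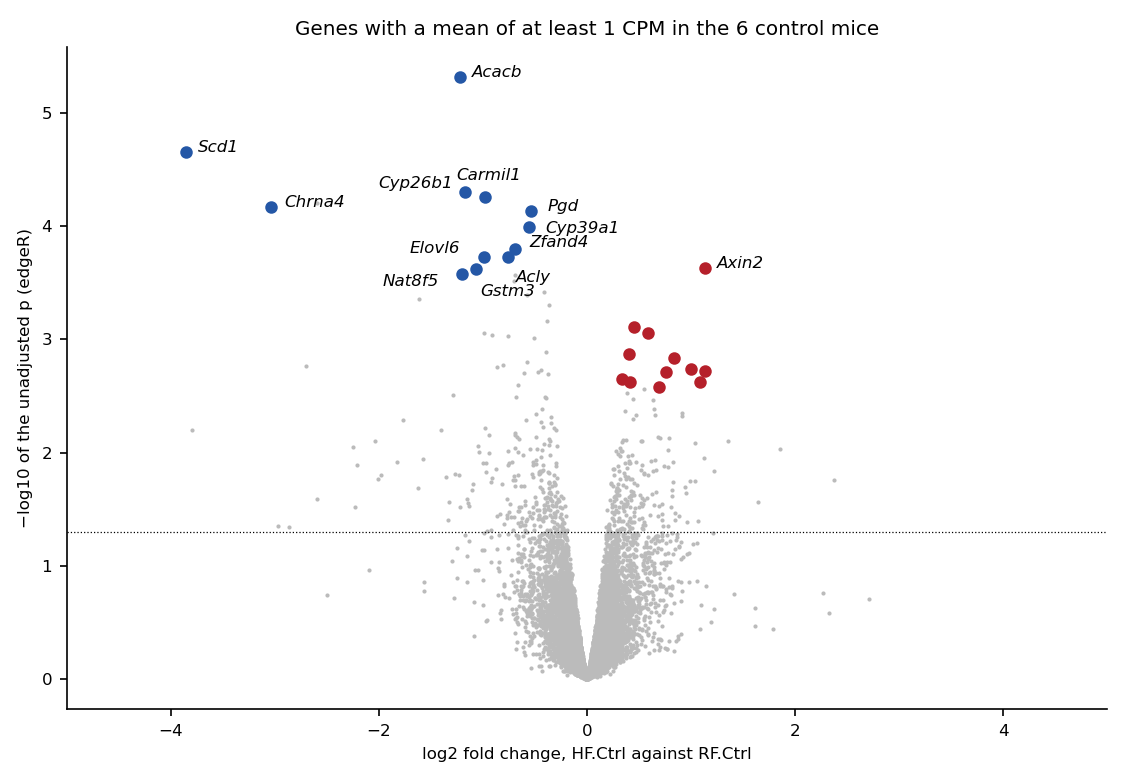
Log2 fold change of each gene with a mean of at least 1 CPM (x axis) against the −log10 of its unadjusted p by edgeR (y axis), HF.Ctrl against RF.Ctrl, 3 mice each. Blue and red points are the 12 lower and 12 higher genes with the smallest p whose groups do not overlap, the dotted line is an unadjusted p of 0.05, and the lower genes reach further, with Acacb and Scd1 at the top left.

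Scd1, which puts the double bond into stearate and palmitate, had 1249, 995 and 1081 normalized CPM in RF.Ctrl 1, 2 and 3. The 3 HF.Ctrl mice had 69.3, 91.0 and 69.5. The lowest RF.Ctrl mouse was thus far above the highest HF.Ctrl mouse, and the fitted level was 14.5-fold lower with high fat (log2 fold change −3.85, SE 0.49, adjusted p = 0.155 by edgeR's quasi-likelihood test). DESeq2 gave the same size with an adjusted p of 1.95e-11, and edgeR on the 6 control mice alone gave 6.81e-06. Over all 23 alternative fits the log2 fold change of Scd1 stayed between −3.99 and −3.76, while its adjusted p ranged from 1.95e-11 to 0.999. Without the mice high in acinar genes it was −3.89.

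Acacb had the smallest p of all genes. It encodes the acetyl-CoA carboxylase at the mitochondrial surface, whose malonyl-CoA holds back the import of fatty acids by CPT1. Its level was 35.4, 24.1 and 30.2 normalized CPM in RF.Ctrl 1, 2 and 3 and 12.5, 14.0 and 11.9 in HF.Ctrl 1, 2 and 3, with no overlap. The log2 fold change was −1.22 (SE 0.17, adjusted p = 0.0704 by edgeR), and DESeq2 gave an adjusted p of 7.25e-07. In GRCm38 the gene lies on chr5:114146535-114250761 (+ strand), and Scd1 on chr19:44394455-44407879 (− strand).

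The cytosolic steps of fatty acid synthesis followed the same direction. Acly, which splits citrate, had 150, 162 and 212 normalized CPM in RF.Ctrl 1 to 3 and 97.6, 94.5 and 117 in HF.Ctrl 1 to 3 (log2 fold change −0.76, SE 0.15). Acaca, the cytosolic acetyl-CoA carboxylase, had 69.5, 80.9 and 85.5 against 40.7, 37.6 and 51.1 (−0.87, SE 0.22). Acss2, which makes acetyl-CoA from acetate, had 150, 129 and 176 against 109, 109 and 103 (−0.50, SE 0.12). None of these 3 genes had an HF.Ctrl mouse within the RF.Ctrl range. Fasn, the synthase itself, had 120, 127 and 181 against 79.5, 90.7 and 105 (−0.63, SE 0.23, adjusted p of 1.0 by edgeR) and no DESeq2 call, and its groups did not overlap either. Elovl6, which lengthens palmitate to stearate, had 95.4, 81.3 and 90.3 against 42.8, 52.1 and 39.9 (−0.98, SE 0.19). Me1, the malic enzyme that supplies NADPH, had 376, 218 and 230 against 171, 140 and 175 (−0.76, SE 0.18). RF.Ctrl 1 stood well above the rest of its group, and the log2 fold change of Me1 was −0.47 without it and −0.35 without the mice high in acinar genes. Acsl5, an acyl-CoA synthetase, differed by less, with 304, 290 and 319 against 256, 260 and 273 (−0.21, SE 0.09).

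Of the 23 listed genes of fatty acid synthesis, 22 had enough counts to be tested, and 16 of them were lower and 6 higher in HF.Ctrl. The 9 named above all had an unadjusted p under 0.05, none of the list did so in the other direction, and in 9 members all HF.Ctrl mice lay below all RF.Ctrl mice. The median log2 fold change of the list was −0.19, against 0.00 over all genes tested, and 40.9% of its members had an unadjusted p under 0.05 against 3.56% of all genes. DESeq2 called 7 of the members lower, Scd1, Acacb, Elovl6, Acly, Me1, Acaca and Acss2. Without the mice high in acinar genes the median was −0.28 and 5 members had an unadjusted p under 0.05. The mRNA of Srebf1, which encodes SREBP1c, was 74.7, 99.7 and 136 normalized CPM in RF.Ctrl and 71.1, 85.1 and 117 in HF.Ctrl 1 to 3 (log2 fold change −0.18, SE 0.23), so the groups overlapped. Thrsp, another lipogenic gene, varied more within groups than between them, from 70.8 to 262 in RF.Ctrl and from 62.5 to 144 in HF.Ctrl. Dgat2, which joins the last acyl chain to triglyceride, was at 379 to 477 in RF.Ctrl and 444 to 462 in HF.Ctrl (log2 fold change 0.11, SE 0.10).

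**Figure D2:**
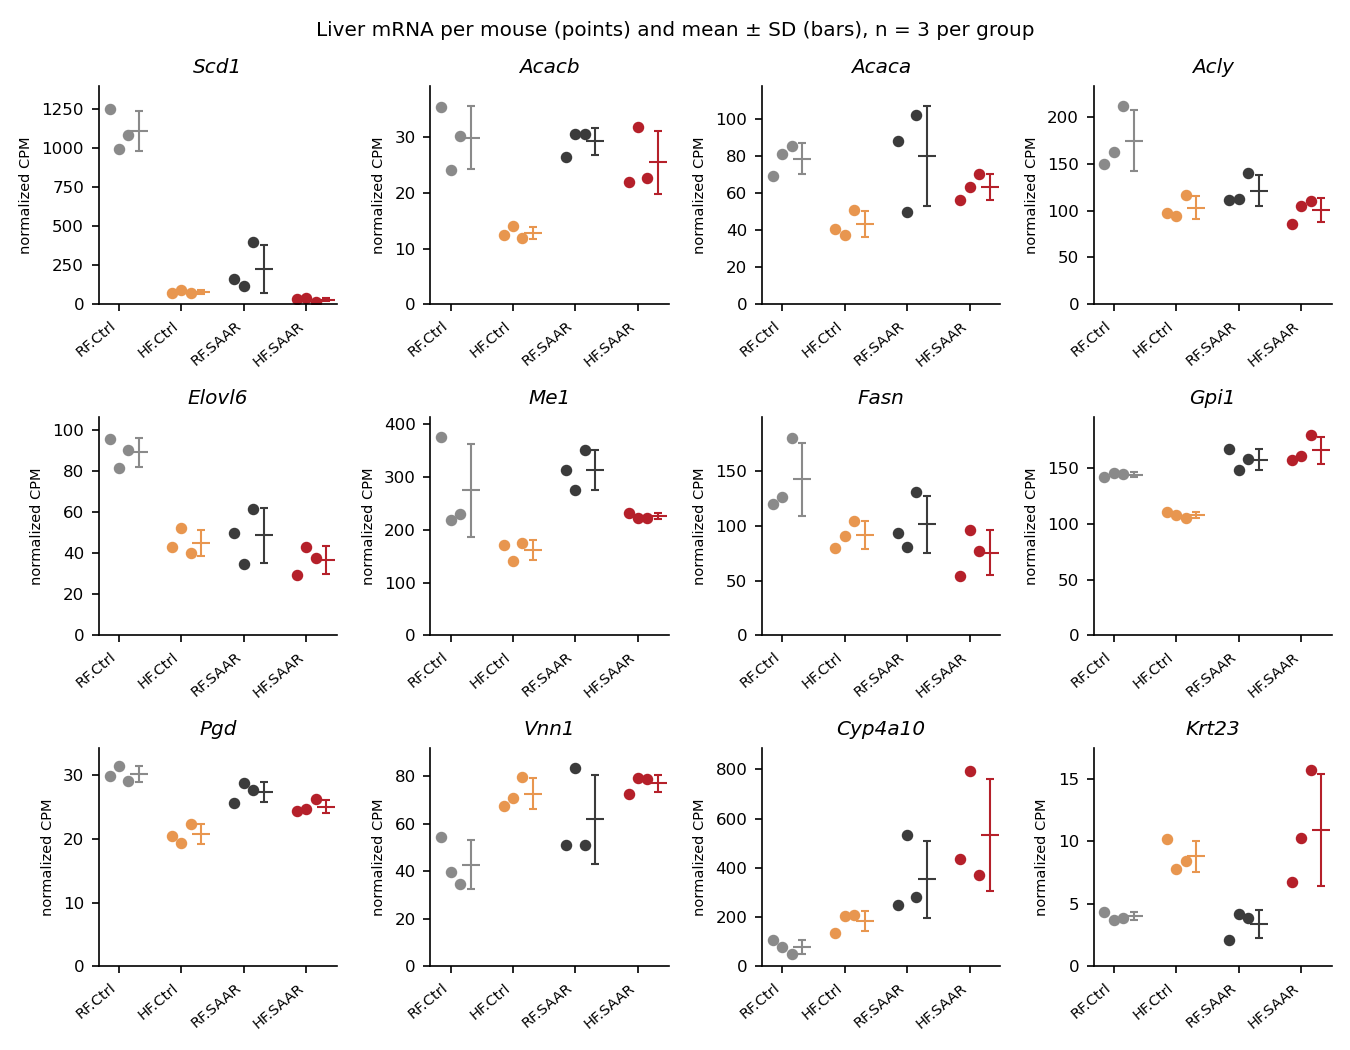
Normalized CPM (y axis of each panel, from 0) of 12 genes in each mouse of the 4 groups, with the mean ± SD beside the points (n = 3). Scd1, Acacb, Acaca, Acly, Elovl6, Me1, Fasn, Gpi1 and Pgd are lower and Vnn1, Cyp4a10 and Krt23 higher in every HF.Ctrl mouse than in any RF.Ctrl mouse.

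Lipogenic promoters are known for CCAAT boxes, the sites of NF-Y, which works together with SREBP. Promoter sequence was read from RefSeq (GRCm38.p6), and Acacb, Acss2 and Fasn are shown, whose entries hold this box in the 150 bases before the start. Acsl5 also holds one there, which begins 117 bases before the start, and is not shown. The entries of Acaca and Elovl6 hold none, that of Acly holds one beginning 37 bases after the start, and of the entries of Me1 one holds none. The entries of Acacb, Acaca and Acsl5 and the other entry of Me1 lie inside the span of their gene. They thus precede an internal start and not the outermost one. The starts of the Acss2 and Elovl6 entries and of the Me1 entry without a box also lie inside the gene span, nearer to its edge. The Acss2 gene begins at chr2:155517948, so the box of its entry lies after the outermost start. The start is here that of the entry. Each line gives the 150 bases before the transcription start, 5′ to 3′ on the strand of the gene, with CCAAT or its reverse complement ATTGG in capitals.
Acacb, chr5:114165368-114165517, + strand: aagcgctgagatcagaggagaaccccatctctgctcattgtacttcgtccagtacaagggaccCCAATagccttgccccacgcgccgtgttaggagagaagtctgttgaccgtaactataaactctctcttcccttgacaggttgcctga
Acss2, chr2:155517893-155518042, + strand: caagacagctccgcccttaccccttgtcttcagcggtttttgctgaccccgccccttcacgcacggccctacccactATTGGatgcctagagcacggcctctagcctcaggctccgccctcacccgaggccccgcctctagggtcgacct
Fasn, chr11:120824548-120824697, − strand: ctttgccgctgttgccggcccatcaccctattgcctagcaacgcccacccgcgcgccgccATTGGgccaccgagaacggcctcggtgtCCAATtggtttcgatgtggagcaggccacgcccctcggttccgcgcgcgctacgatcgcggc
The box begins 87 bases before the start in Acacb and 73 in Acss2, and Fasn has 2, which begin 90 and 62 bases before it. Over the 300 bases that the promoter table holds per entry (250 before and 50 after the start), CCAAT on either strand is in 13 of the 25 entries of the fatty acid synthesis list, which belong to 19 genes, against 37.4% of all 32851 promoters. The SP1 motif GGGCGG on either strand is in 13 of the 25, against 35.7% of all promoters. The E-box CACGTG is in 1 of the 25, against 7.15%, and TCACNCCAC, a form of the sterol regulatory element, is in 0 of the 25, against 1.24%. These matches are descriptions of letters, and binding was not measured.

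The genes that bring sugar into this path were also lower in HF.Ctrl mice, by smaller amounts. Pgd, the NADPH-yielding dehydrogenase of the pentose phosphate path, had 29.9, 31.5 and 29.0 normalized CPM in RF.Ctrl 1 to 3 and 20.5, 19.3 and 22.4 in HF.Ctrl 1 to 3 (log2 fold change −0.54, SE 0.10, adjusted p = 0.155 by edgeR). Gpi1, the glucose phosphate isomerase, had 142, 146 and 145 against 111, 108 and 105 (−0.41, SE 0.09), so that the mice of each group differed by only a few CPM. Tkt, the transketolase, had 80.4, 80.2 and 84.3 against 65.4, 62.2 and 62.9 (−0.36, SE 0.08). DESeq2 called these 3 genes lower, with adjusted p of 0.00226, 0.00167 and 0.00197. For fructose, Khk (fructokinase) had 561, 475 and 395 against 385, 322 and 312 (−0.49, SE 0.17) and Tkfc (triose kinase) 346, 290 and 283 against 251, 238 and 219 (−0.38, SE 0.16). Eno1 (enolase) and Gckr, a regulatory protein of sugar phosphorylation, were lower by 0.28 and 0.29 on the log2 scale.

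All 23 genes of the carbohydrate-responsive and glycolytic list were tested. Of these 21 were lower, 7 had an unadjusted p under 0.05 and in 9 the groups did not overlap, all in the lower direction. The count at an unadjusted p under 0.05 was 4 without RF.Ctrl 1 or without HF.Ctrl 2. The median log2 fold change was −0.18. Pklr, the liver pyruvate kinase and a ChREBP target, had 425, 316 and 338 normalized CPM in RF.Ctrl 1 to 3 and 304, 240 and 213 in HF.Ctrl 1 to 3 (−0.51, SE 0.27, unadjusted p = 0.0819). Mlxipl, which encodes ChREBP, differed by −0.21 (SE 0.15) and G6pdx, the other NADPH-yielding dehydrogenase of the pentose phosphate path, by −0.18 (SE 0.19).

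In the list of gluconeogenic and insulin-responsive genes, 11 of 22 were higher and 11 lower. Pygl, the liver glycogen phosphorylase, had 539, 509 and 479 normalized CPM in RF.Ctrl 1 to 3 and 414, 366 and 419 in HF.Ctrl 1 to 3 (log2 fold change −0.35, SE 0.11, unadjusted p = 0.00794). Ppargc1a, a coactivator of fasting genes, had 11.8, 9.33 and 12.8 against 6.91, 9.04 and 7.09 (−0.55, SE 0.23, unadjusted p = 0.0332). These were the 2 members with an unadjusted p under 0.05. Pck1 ranged from 1950 to 2602 in RF.Ctrl and from 1075 to 2295 in HF.Ctrl. G6pc, the glucose-6-phosphatase, had group means of 319 and 318 with standard deviations of 191 and 139 (n = 3).

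A list of further desaturases and elongases, drawn up for polyunsaturated fatty acids but not confined to them, had 10 of 14 members lower (median −0.23). Elovl5 had 250, 300 and 223 normalized CPM in RF.Ctrl 1 to 3 and 141, 184 and 158 in HF.Ctrl 1 to 3 (log2 fold change −0.68, SE 0.19, unadjusted p = 0.00323). Fads1, the delta-5 desaturase, had 334, 352 and 382 against 249, 315 and 264 (−0.37, SE 0.13, unadjusted p = 0.0147). In both genes every HF.Ctrl mouse lay below every RF.Ctrl mouse. Elovl2 and Elovl3, with log2 fold changes of −0.31 and −0.70, had overlapping groups at an unadjusted p under 0.05, and 1 member was higher at that level. Fads2, the delta-6 desaturase, was at 393 to 462 in RF.Ctrl and 318 to 509 in HF.Ctrl, and HF.Ctrl 2 held the highest value of the 6.

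Cholesterol synthesis genes, driven by SREBP2, showed a smaller shift. Of 27 tested members 19 were lower (median −0.10), with an unadjusted p under 0.05 for Acat2 (−0.36, SE 0.12), Dhcr7 (−0.37, SE 0.14) and Sc5d (−0.31, SE 0.13) and for none in the higher direction. Acat2, which joins acetyl units, had 60.1, 58.9 and 75.0 normalized CPM in RF.Ctrl 1 to 3 and 52.4, 51.4 and 47.1 in HF.Ctrl 1 to 3. Dhcr7, which makes cholesterol in the last step, had 37.7, 40.6 and 54.6 against 36.6, 32.6 and 33.8.

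No gene of fatty acid oxidation was called by edgeR or DESeq2, and most had log2 fold changes above 0. In mitochondria, 20 of 21 members were higher (median 0.18), 4 of them with an unadjusted p under 0.05, and in 9 the HF.Ctrl mice all lay above the RF.Ctrl mice. Acadm, the medium-chain dehydrogenase, had 405, 375 and 353 normalized CPM in RF.Ctrl 1 to 3 and 460, 457 and 440 in HF.Ctrl 1 to 3 (log2 fold change 0.26, SE 0.10, unadjusted p = 0.0248). Hadh, the short-chain hydroxyacyl dehydrogenase, had 233, 234 and 242 against 283, 273 and 283 (0.24, SE 0.10), and both groups were tight. Slc22a5, the carnitine transporter, had 26.5, 19.9 and 18 against 30.2, 35.6 and 26.8 (0.53, SE 0.21). Eci1, an enoyl-CoA isomerase, had 145, 122 and 104 against 173, 185 and 135 (0.41, SE 0.18), with HF.Ctrl 3 inside the RF.Ctrl range. Cpt1a, which carries acyl chains into mitochondria, was at 366, 382 and 467 in RF.Ctrl and 362, 455 and 400 in HF.Ctrl (0.00, SE 0.12). Without the mice high in acinar genes the median of the list was 0.20 and 0 members had an unadjusted p under 0.05. That count was also 0 without RF.Ctrl 2, 1 without HF.Ctrl 1 or RF.Ctrl 3, 2 without HF.Ctrl 2 and 7 without RF.Ctrl 1. The median was 0.12 without RF.Ctrl 3, and with the acinar level as a covariate it was 0.12 with 1 member at that level. Of the 6 ketogenic genes 5 were higher and none had an unadjusted p under 0.05.

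Peroxisomal and omega oxidation followed the same direction, with 22 of 26 genes higher (median 0.15), 6 at an unadjusted p under 0.05 and 7 without overlap, none of either kind lower. Decr2, a peroxisomal dienoyl-CoA reductase, had 155, 149 and 157 normalized CPM in RF.Ctrl 1 to 3 and 188, 235 and 193 in HF.Ctrl 1 to 3 (log2 fold change 0.42, SE 0.11, adjusted p = 0.772 by edgeR). Ech1, an enoyl-CoA isomerase, had 255, 224 and 203 against 306, 317 and 275 (0.40, SE 0.13). Cyp4a10, an omega hydroxylase and a sensitive PPARα target, had 108, 77.9 and 50.4 against 136, 205 and 210 (1.22, SE 0.41, unadjusted p = 0.0145). Its relative Cyp4a14 had 47.6, 19.2 and 22.6 against 52.7, 43.0 and 90.9 (SE of the log2 fold change 0.65), where HF.Ctrl 2 lay below RF.Ctrl 1. These 2 genes belong to a cluster of close copies, between which the authors' read assignment can divide counts. Ehhadh and Acaa1a, the peroxisomal bifunctional enzyme and thiolase, differed by 0.38 (SE 0.17) and 0.30 (SE 0.11), both with no overlap. Without the mice high in acinar genes the list median was 0.24 and 4 members had an unadjusted p under 0.05, and it was 0.29 without RF.Ctrl 1. Without RF.Ctrl 3, 3 members had an unadjusted p under 0.05. Leaving out the mice high in acinar genes was a choice made with the data in view.

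Of 23 genes on a further list of PPARα targets, which shares Aldh3a2 with the list before, 17 were higher (median 0.22), 6 at an unadjusted p under 0.05 and none lower at that level. Vnn1, a pantetheinase that recycles the vitamin of coenzyme A, had 54.4, 39.5 and 34.5 normalized CPM in RF.Ctrl 1 to 3 and 67.4, 70.7 and 79.9 in HF.Ctrl 1 to 3 (log2 fold change 0.76, SE 0.20, adjusted p = 0.704 by edgeR). Krt23, a keratin, had 4.36, 3.74 and 3.90 against 10.2, 7.76 and 8.44 (1.13, SE 0.29, adjusted p = 0.704). Retsat, a retinol saturase, had 273, 200 and 203 against 350, 314 and 305 (0.52, SE 0.18). In all 3 genes the groups were apart. Cd36, the fatty acid translocase, had 61.8, 44.2 and 38.4 against 65.8, 51.6 and 76.9 (0.43, SE 0.17), Aldh3a2, a fatty aldehyde dehydrogenase, differed by 0.46 (SE 0.18) and Acsl1, an acyl-CoA synthetase, by 0.27 (SE 0.11), and these 3 overlapped. Other well-known targets had overlapping groups. Pdk4, a kinase that spares glucose, had 5.40, 4.51 and 8.23 against 6.71, 4.97 and 4.46 (−0.17, SE 0.61), and Angptl4, an inhibitor of lipoprotein lipase, 204, 100 and 130 against 153, 201 and 95.1 (0.05, SE 0.28). The median of the list was 0.38 without RF.Ctrl 1, 0.14 without HF.Ctrl 2 and 0.07 without the mice high in acinar genes.

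Steatosis-associated and lipid droplet genes differed little after 7 days. Of 17 PPARγ-linked genes 10 were higher and Cd36 alone had an unadjusted p under 0.05. Pparg itself had 8.90, 4.92 and 7.74 normalized CPM in RF.Ctrl 1 to 3 and 7.87, 7.76 and 9.48 in HF.Ctrl 1 to 3 (log2 fold change 0.22, SE 0.21). Cidec, a droplet fusion protein, was at 4.26 to 5.68 against 4.04 to 7.93, and Cidea was under 1 in all 6 mice. Among 24 droplet proteins and lipases, Hsd17b11 was the member with an unadjusted p under 0.05, at 182, 172 and 163 in RF.Ctrl and 204, 232 and 206 in HF.Ctrl (0.31, SE 0.11). Plin2, which coats hepatic droplets and follows their amount, had group means of 496 and 487 with standard deviations of 106 and 76.2 (n = 3).

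Fatty acid uptake and activation had 4 members higher and 1 lower, of 24, at an unadjusted p under 0.05. That was 20.8% of the list, against 3.56% of all genes. Slc27a2, a fatty acid transporter with acyl-CoA synthetase activity, had 1294, 1121 and 1181 normalized CPM in RF.Ctrl 1 to 3 and 1447, 1720 and 1347 in HF.Ctrl 1 to 3 (log2 fold change 0.33, SE 0.11). None of the 26 apolipoprotein and lipoprotein assembly genes had an unadjusted p under 0.05, and in none were the groups apart.

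In bile acid synthesis and transport 13 of 26 genes were higher and 13 lower. Cyp39a1, an oxysterol hydroxylase, had 18.3, 18 and 15.7 normalized CPM in RF.Ctrl 1 to 3 and 12.3, 11.6 and 11.4 in HF.Ctrl 1 to 3 (log2 fold change −0.56, SE 0.10, adjusted p = 0.184 by edgeR and 0.00771 by DESeq2). Abcc3, which exports bile acids to the blood, had 97.2, 120 and 123 against 148, 130 and 184 (0.44, SE 0.15). Slco1a4, an uptake transporter, had 25.9, 31.7 and 48.4 against 23.8, 20.2 and 25.3 (−0.61, SE 0.27). Fgfr4, the receptor for the intestinal bile acid signal, was lower by 0.24 (SE 0.11) with overlapping groups. Cyp7a1, the rate-limiting enzyme of the classic path, ranged from 6.36 to 165 within RF.Ctrl and from 44.5 to 78.2 in HF.Ctrl, so that the mice of 1 group spanned the whole range of the other.

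The integrated stress response is the eIF2α and ATF4 program that amino acid shortage sets off. Of 27 tested targets 17 were lower (median −0.10), 3 of them with an unadjusted p under 0.05 and none higher at that level. Leaving out 1 mouse moved the median to between −0.10 and 0.05. Mthfd2, a mitochondrial folate enzyme, had 2.93, 3.39 and 3.66 normalized CPM in RF.Ctrl 1 to 3 and 1.16, 1.17 and 0.917 in HF.Ctrl 1 to 3 (log2 fold change −1.61, SE 0.35, adjusted p = 0.339 by edgeR and 0.0151 by DESeq2). Atf5 had 237, 249 and 203 against 186, 169 and 152 (−0.44, SE 0.13). Psat1, of serine synthesis, had 3.10, 1.23 and 4.63 against 1.92, 0.893 and 1.04 (−1.22, SE 0.49). The first 2 were apart, and Psat1 overlapped. Asns, asparagine synthetase, was at 4.25, 6.57 and 22.9 in RF.Ctrl and 3.22, 6.70 and 4.04 in HF.Ctrl (log2 fold change −1.25, SE 0.61), where RF.Ctrl 3 stood far above the other mice. Fgf21, the hepatokine of this response, was low in both groups, at 0.671 to 2.62 against 0.917 to 2.40.

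Amino acid catabolism and the urea cycle had 6 of 46 genes lower and 1 higher at an unadjusted p under 0.05. That was 15.2% of the list, against 3.56% of all genes. In 9 members all HF.Ctrl mice lay below all RF.Ctrl mice against 4 above, where all genes gave 4.43% below and 4.12% above. Cps1, which makes carbamoyl phosphate for urea, had 3238, 3563 and 4014 normalized CPM in RF.Ctrl 1 to 3 and 2636, 2692 and 2638 in HF.Ctrl 1 to 3 (log2 fold change −0.44, SE 0.11, adjusted p = 0.704 by edgeR). Cbs, which starts the path from homocysteine to cysteine, had 387, 461 and 401 against 351, 312 and 305 (−0.37, SE 0.12). Got1, the cytosolic aspartate aminotransferase, had 390, 420 and 397 against 281, 307 and 157 (−0.70, SE 0.25). In these 3 genes the groups were apart. Sds (serine dehydratase), Csad (of taurine synthesis) and Kynu (of tryptophan breakdown) were lower by 0.66, 0.75 and 0.28 with overlapping groups, and Aadat, an aminotransferase of lysine and kynurenine, was the higher member (0.40, SE 0.14).

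Cytochromes P450 of drug and steroid metabolism differed in both directions, with 5 of 34 higher, and 4 lower, among those whose unadjusted p was under 0.05. Together these made 26.5% of the list, against 3.56% of all genes. Cyp2e1, which oxidizes ethanol and ketones, had 7326, 6505 and 7022 normalized CPM in RF.Ctrl 1 to 3 and 8527, 10121 and 8908 in HF.Ctrl 1 to 3 (log2 fold change 0.40, SE 0.10, adjusted p = 0.651 by edgeR and 0.0246 by DESeq2). Cyp2c54, Cyp2c37 and Cyp1a2 were higher by 0.40, 0.33 and 0.22, all with the groups apart. Cyp3a11 was lower, with 817, 679 and 890 against 610, 432 and 535 (−0.60, SE 0.26). Cyp26a1, and Cyp26b1 which is not on this list, break down retinoic acid. Both were lower, Cyp26b1 with 10.8, 15.8 and 14.0 against 7.87, 4.58 and 5.75 (−1.17, SE 0.20, adjusted p = 0.155 by edgeR and 0.000621 by DESeq2) and Cyp26a1 with 7.69, 3.28 and 7.74 against 3.29, 1.17 and 3.36 (−1.26, SE 0.45). Cyp17a1 and Cyp2c55, at a few CPM, were lower by 1.14 and 1.10.

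Of 27 NRF2 targets 4 were lower and 1 higher at an unadjusted p under 0.05, Me1 and Abcc3 among them. That was 18.5% of the list, against 3.56% of all genes. Gstm3, a glutathione S-transferase, had 18.4, 33.2 and 29.0 normalized CPM in RF.Ctrl 1 to 3 and 12.9, 14.7 and 10.9 in HF.Ctrl 1 to 3 (log2 fold change −1.07, SE 0.21, adjusted p = 0.262 by edgeR and 0.00226 by DESeq2). Gstm1 had 533, 667 and 601 against 463, 487 and 443 (−0.37, SE 0.10), and Nqo1, a quinone reductase, 3.39, 3.74 and 3.54 against 2.26, 2.34 and 2.69 (−0.55, SE 0.18). All 3 had no overlap, and the Gstm genes are close copies that share reads.

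Male-biased liver genes were mostly higher in HF.Ctrl, 23 of 27 (median 0.16), with 4 at an unadjusted p under 0.05 in that direction and 1, Elovl3, in the other. Both directions together made 18.5% of the list, against 3.56% of all genes. The major urinary proteins, pheromone carriers made under growth hormone, gave 3 of the 4 higher members at that level. Mup1 had 3187, 2175 and 2846 normalized CPM in RF.Ctrl 1 to 3 and 4720, 7025 and 3740 in HF.Ctrl 1 to 3 (log2 fold change 0.92, SE 0.26), and Mup12 and Mup17 differed by 0.78 (SE 0.27) and 0.96 (SE 0.41). HF.Ctrl 2, the mouse highest in acinar genes, was the highest in all 3. The Mup genes are nearly identical in sequence, so that their counts are estimates of how shared reads divide. By TPM, which takes length into account, the most abundant genes of the control mice were Mup7, Mup22, Mup19, Alb and Apoe. Their mean TPM was 59190, 56230, 29430, 33700 and 24300 in RF.Ctrl and 71290, 67750, 40010, 28450 and 22420 in HF.Ctrl, and none had an unadjusted p under 0.05 on the count scale.

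Genes outside these groups completed the 24 with the smallest p among named genes whose groups did not overlap. Lower in HF.Ctrl were Carmil1, a regulator of actin capping, with 20.2, 18.4 and 19.5 normalized CPM in RF.Ctrl 1 to 3 and 7.67, 10.3 and 11.5 in HF.Ctrl 1 to 3 (log2 fold change −0.98, SE 0.17, adjusted p = 0.155 by edgeR). Chrna4, a nicotinic receptor subunit, had 3.04, 3.03 and 4.70 against 0.479, 0.335 and 0.489 (−3.03, SE 0.54, adjusted p = 0.155), which made it the largest step of the 24 after Scd1, at a low level. DESeq2 called both, with adjusted p of 0.00118 and 0.000451. Zfand4 had 25.8, 29.6 and 34.5 against 19.1, 18.3 and 18.3 (−0.69, SE 0.13), and Nat8f5 7.29, 6.21 and 5.79 against 3.15, 2.79 and 2.45 (−1.20, SE 0.25).

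Axin2, a feedback inhibitor and read-out of Wnt signalling, was the higher gene with the smallest p. It had 2.75, 3.59 and 2.68 normalized CPM in RF.Ctrl 1 to 3 and 5.07, 5.75 and 9.05 in HF.Ctrl 1 to 3 (log2 fold change 1.13, SE 0.23, adjusted p = 0.262 by edgeR and 0.0174 by DESeq2). Ppm1k, the phosphatase that activates branched-chain ketoacid dehydrogenase, had 31.5, 31.3 and 33.5 against 50.9, 41.1 and 52.4 (0.58, SE 0.14). Gabarapl1, an ATG8-family protein of autophagosomes, had 411, 461 and 434 against 580, 572 and 498 (0.34, SE 0.09). Every HF.Ctrl mouse was above every RF.Ctrl mouse in these genes. Rarres1, a retinoic acid responsive gene, had 74.2, 75.2 and 66.0 against 119, 175 and 90.5 (0.84, SE 0.21). The log2 fold change of Rarres1 was 0.55 without HF.Ctrl 2 and 0.37 without the mice high in acinar genes, and that of Gabarapl1 was 0.17 without the latter. Mmd had 134, 130 and 113 against 171, 173 and 170 (0.45, SE 0.10). Fam102a and Hist1h4i differed by 0.70 and 1.09, the pseudogene Mup-ps17 had 2.70, 3.03 and 2.56 against 4.72, 7.70 and 4.16, and the counts of Hist1h4i and Mup-ps17 can include reads of near-identical genes.

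**Figure D3:**
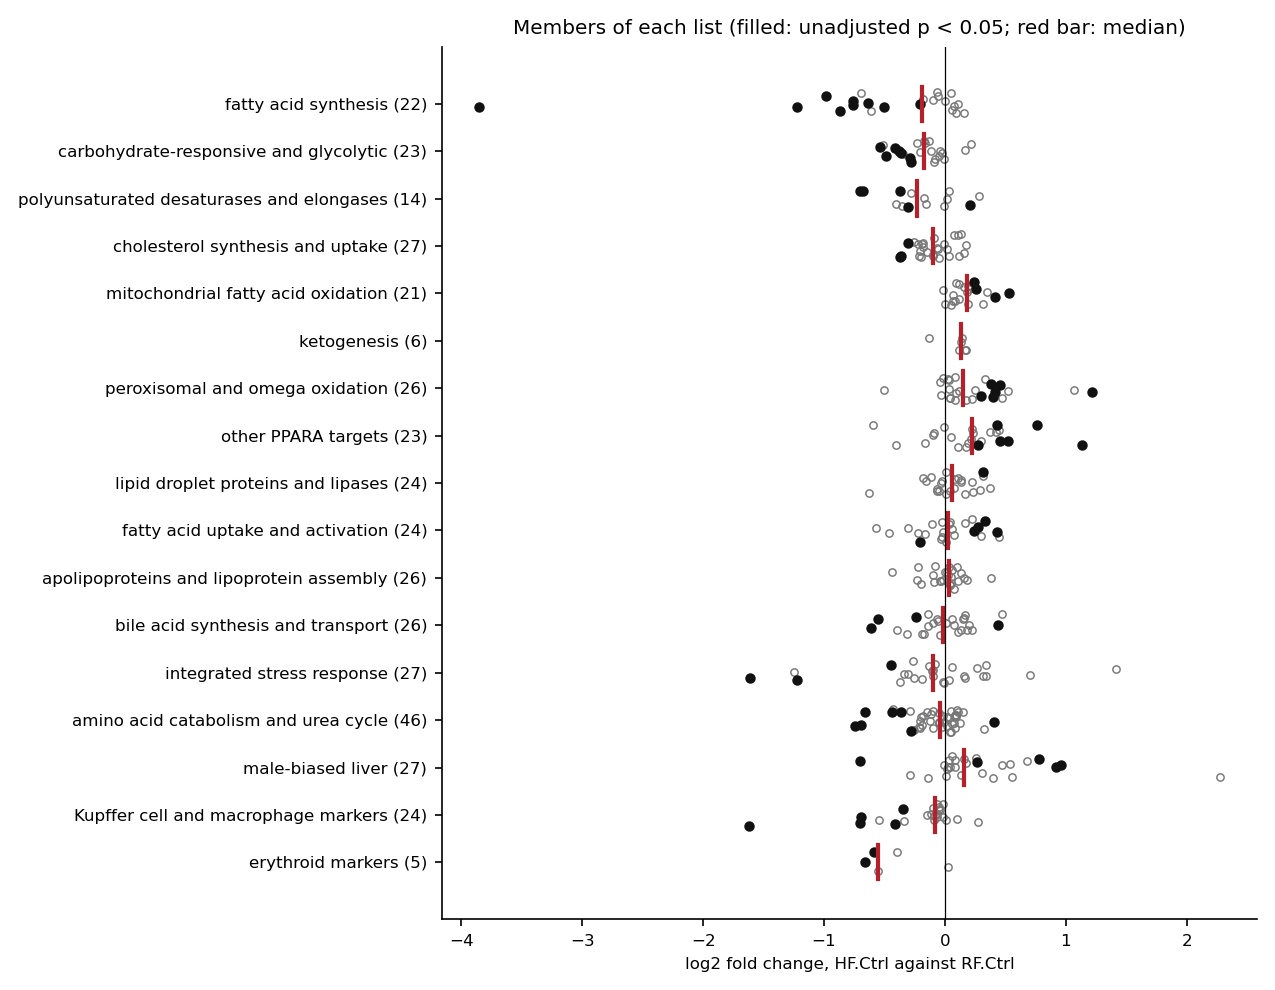
Log2 fold change, HF.Ctrl against RF.Ctrl (x axis), of every tested member of 17 gene lists, with the number tested in brackets. Filled points have an unadjusted p under 0.05 and red bars are list medians, which lie left of 0 for fatty acid synthesis (−0.19) and right of 0 for mitochondrial oxidation (0.18).

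Of 32 interferon-stimulated genes 25 were lower (median −0.10), with Oasl1 (−0.52, SE 0.19) and Stat2 (−0.29, SE 0.10) at an unadjusted p under 0.05. These made 6.25% of the list, against 3.56% of all genes. Among 28 acute phase genes 14 were higher and 14 lower, and Saa4 (0.34, SE 0.11) was the member past that level. The circadian clock (22 tested), the cell cycle (23) and the unfolded protein response (22) had 0 members past it.

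In whole liver, fewer cells of a type and less RNA per cell cannot be told apart. The 4 globin genes tested were lower in every HF.Ctrl mouse than in any RF.Ctrl mouse, at an unadjusted p under 0.05 for 2 of them. Hba-a1 had 108, 134 and 122 normalized CPM in RF.Ctrl 1 to 3 and 76.4, 75.8 and 78.9 in HF.Ctrl 1 to 3 (log2 fold change −0.66, SE 0.23, unadjusted p = 0.0158), and Hba-a2, Hbb-bs and Hbb-bt differed by −0.59, −0.56 and −0.40, with unadjusted p of 0.0405, 0.0577 and 0.174. Alas2, the first enzyme of erythroid heme synthesis, had 114, 111 and 106 against 122, 99.9 and 115 (0.03, SE 0.12). The 7 erythroid genes found summed to 596, 674 and 605 in RF.Ctrl 1 to 3 and to 469, 456 and 445 in HF.Ctrl 1 to 3. Of 24 Kupffer cell and macrophage genes 21 were lower (median −0.08), 5 with an unadjusted p under 0.05 (20.8% of the list, against 3.56% of all genes). Cd9 had 13.7, 15.7 and 16.6 against 8.97, 10.3 and 8.99 (−0.70, SE 0.15, adjusted p = 0.276 by edgeR and 0.0294 by DESeq2), and is also made by other cells. Timd4 (−0.69, SE 0.23) and Marco (−1.62, SE 0.59) mark resident Kupffer cells, Marco with 17.6, 3.64 and 19.1 against 3.90, 6.25 and 2.81, and Adgre1 and Lyz2 differed by −0.35 and −0.41. Clec4f, also on this list, overlapped, with 111, 145 and 99.1 in RF.Ctrl 1 to 3 and 98.7, 138 and 115 in HF.Ctrl 1 to 3. Cd163 had 21.2, 32.7 and 21.5 against 25.6, 40.4 and 24.9, and 3 members of the list were higher. The summed level of the list overlapped, at 672 to 776 in RF.Ctrl and 595 to 784 in HF.Ctrl.

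Skeletal muscle genes, foreign to liver, were detected in all mice. Their sum was 473, 355 and 839 normalized CPM in RF.Ctrl 1 to 3 and 897, 409 and 742 in HF.Ctrl 1 to 3, and 3 of 14 members, Myh4, Actn3 and Pvalb, had an unadjusted p under 0.05 (log2 fold changes 1.35, 0.66 and 0.81). None of the 11 adipose and 4 islet genes with enough counts to be tested had an unadjusted p under 0.05. Adipoq, which defines adipocytes, was at 0.205 to 1.28 in RF.Ctrl and 0.411 to 3.80 in HF.Ctrl. Endothelial, stellate cell, cholangiocyte and lymphocyte lists also had 0 members past that level. The endocrine genes Pcsk2 and Sst set 1 mouse of each group apart. Pcsk2 was at 2.37 to 2.81 in RF.Ctrl 1, HF.Ctrl 1, RF.SAAR 1 and HF.SAAR 1 and at 0.473 to 1.17 in the other mice, and Sst was also highest in these 4. The labels name no batch, and the part of this pattern and of the muscle and erythroid signals in the other differences was not tested.

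**Figure D4:**
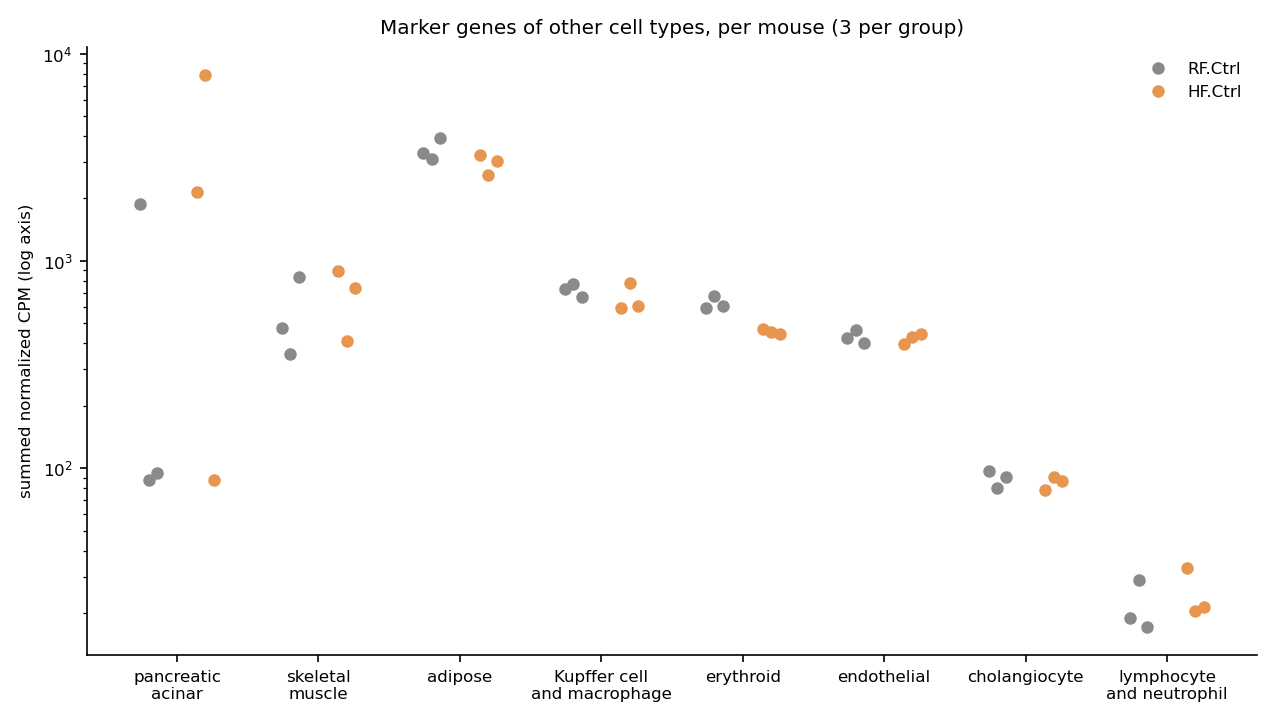
Summed normalized CPM (y axis, log scale) of marker genes of 8 other cell types in each RF.Ctrl and HF.Ctrl mouse. Acinar genes stand high in 1 RF.Ctrl and 2 HF.Ctrl mice, the erythroid sum is lower in all HF.Ctrl mice, and the other sums overlap between groups, the adipose sum consisting mostly of Car3, which hepatocytes make too.

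The same contrast of fat was available in the SAAR mice, which share no animal with the control groups. There edgeR called 8 of 14628 genes (0.0547%) at an adjusted p of 0.05, and 779 (5.33%) had an unadjusted p under 0.05. The 8 calls became 0 without the mice high in acinar genes, 1 without HF.SAAR 2 or HF.SAAR 3, and 2 with the acinar covariate. Of the 521 genes at that level in control mice, 327 (62.8%) had the same sign in SAAR mice, as did 7888 of all 14628 genes (53.9%). In 98 genes the unadjusted p was under 0.05 in both contrasts, and 73 of these had the same sign, 38 higher and 35 lower.

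Scd1 was lower with high fat in both settings. Its level in SAAR mice was 159, 115 and 402 normalized CPM in RF.SAAR 1 to 3 and 30.9, 41.3 and 17.6 in HF.SAAR 1 to 3 (log2 fold change −2.91 against −3.85 in control mice). Among genes with an unadjusted p under 0.05 and the same sign in both were Me1 (−0.76 in control and −0.48 in SAAR mice), Acss2 (−0.50 and −0.34), Elovl5 (−0.68 and −0.46), Carmil1 (−0.98 and −0.52), Nat8f5 (−1.20 and −0.82), Krt23 (1.13 and 1.69) and Cyp2e1 (0.40 and 0.36). Acacb, in contrast, had 26.5, 30.6 and 30.6 in RF.SAAR and 21.9, 31.9 and 22.6 in HF.SAAR 1 to 3, a log2 fold change of −0.20 against −1.22. The difference between the 2 contrasts, tested as an interaction, had an unadjusted p of 0.000651 and an adjusted p of 0.732 for Acacb.

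Group by group, the median of fatty acid synthesis was −0.19 in control and −0.15 in SAAR mice, with 9 and 3 members lower at an unadjusted p under 0.05. The carbohydrate list had medians of −0.18 and 0.05, mitochondrial oxidation 0.18 and 0.00, peroxisomal oxidation 0.15 and −0.04, and male-biased genes 0.16 and −0.30. The integrated stress response stood at −0.10 in control and 0.40 in SAAR mice, where 7 members were higher at an unadjusted p under 0.05. For Mthfd2 the log2 fold changes were −1.61 and 0.74, and for Atf5 −0.44 and 0.35. Gstm3 and Cyp26b1 were lower in control mice (−1.07 and −1.17) and higher in SAAR mice (0.64 and 0.46). The interaction did not pass for any of these 4 genes, with adjusted p by edgeR of 0.356 for Mthfd2, 0.921 for Atf5 and 0.26 for Gstm3 and Cyp26b1.

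Of 14628 interactions, 1 (0.00684%) passed the adjustment, and 0 did without HF.Ctrl 1, HF.Ctrl 2, RF.Ctrl 2, RF.SAAR 2 or RF.SAAR 3. Cyp39a1 was lower in every HF.Ctrl than in any RF.Ctrl mouse, as given above, and in SAAR mice it had 94.3, 87.2 and 79.5 normalized CPM in RF.SAAR 1 to 3 and 131, 143 and 140 in HF.SAAR 1 to 3. The log2 fold change was −0.56 (SE 0.10) in control and 0.66 (SE 0.09) in SAAR mice, and their difference was 1.22 (SE 0.14, adjusted p = 0.00887 by edgeR's quasi-likelihood test). The gene lies on chr17:43667425-43751431 (+ strand) in GRCm38.

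**Figure D5:**
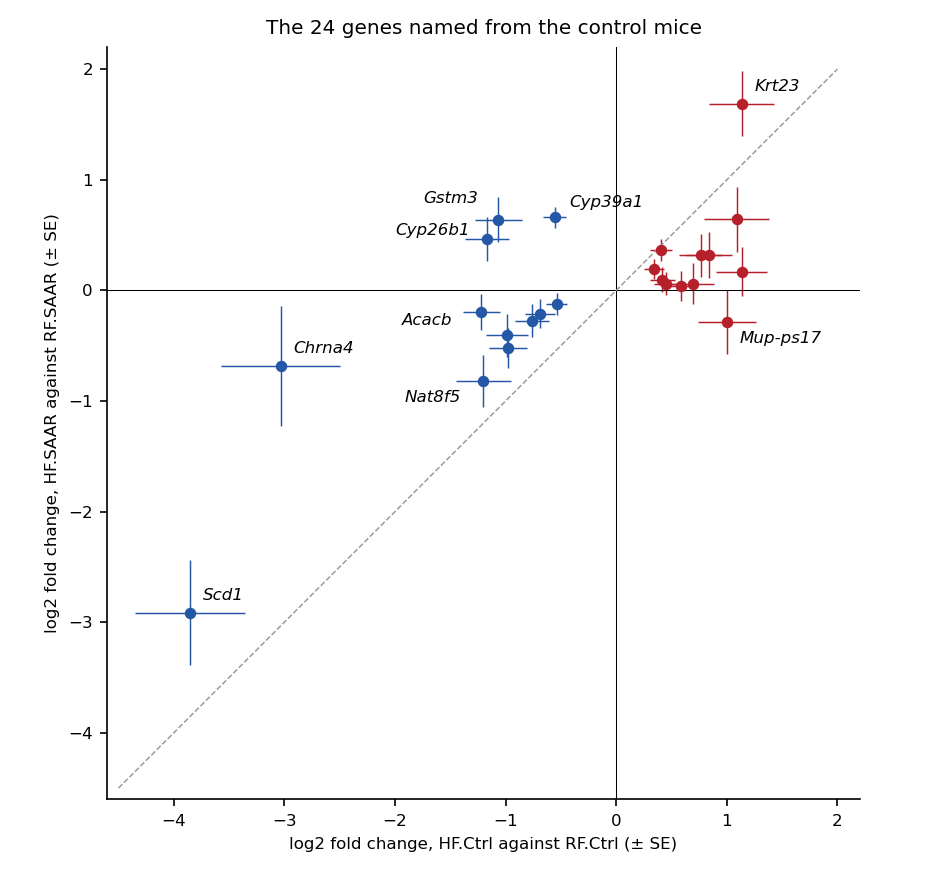
Log2 fold change with high fat in control mice (x axis) and in SAAR mice (y axis), each with its standard error, for the 24 genes named from the control mice. The dashed line marks equal values, 11 of the 12 higher genes and 9 of the 12 lower genes have the same sign in SAAR mice, and Cyp39a1, Gstm3 and Cyp26b1 lie above 0 there.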

How the data were processed

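Liver RNA of 12 mice was sequenced as polyadenylated, paired-end libraries. Per the labels and the study's methods, the authors trimmed reads with cutadapt and ran kallisto on the Ensembl mouse transcriptome (release 94). The deposited values are, first, estimated counts, that is read pairs that kallisto assigns to each transcript, in which reads that match several transcripts are shared among them, and the deposited TPM values are these counts per effective length, scaled per mouse. Neither is normalized between mice, and replicates are not pooled. Of 118489 listed transcripts, 116816 were matched to GENCODE vM21 (GRCm38) and summed over 36047 genes. Sums were rounded. Totals of 16203094 to 21230092 counts per mouse give the depth. No molecular identifiers are described, so error was taken from the spread between mice.

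Genes of a pancreatic acinar list (51 with counts) were removed, and the rest analysed in R 4.3.3 with edgeR 4.0.16: libraries were scaled by TMM, low genes dropped by filterByExpr with the group given, and quasi-likelihood models with the robust option fitted to the 12 mice with 4 group means, with p-values adjusted after Benjamini and Hochberg in each comparison. The standard error is the log2 fold change divided by the square root of F. The contrasts were HF.Ctrl against RF.Ctrl, HF.SAAR against RF.SAAR and their difference. DESeq2 1.42.0 and limma 3.58.1 (voom) were alternatives, with other scalings, filters, length offsets, an acinar covariate, the control mice alone and leaving out each mouse. The fit was tested on simulated data. Named are the 12 higher and 12 lower genes with the smallest p, a mean of at least 1 CPM and no overlap between groups, members of the lists, 11 genes fixed by name, and the 5 most abundant by TPM. Some genes that these rules name are not reported here. The groups, lists and rules were chosen with earlier results of these data known, and the lists were written from general knowledge. The label tags for diet and fat content hold each other's values, and groups were read from the values. Replicates of a group differed by more than counting noise (chi-square per degree of freedom 19.2 to 52.4), so none was counted as a duplicate.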

Additional observations from a re-analysis of the deposited data

Results flagged for a closer look

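Cyp39a1, an oxysterol hydroxylase of bile acid synthesis, stands out because the effect of high fat differed between control and SAAR mice by the interaction test. The difference of the 2 log2 fold changes was 1.22 (SE 0.14, adjusted p = 0.00887 by edgeR), with all 3 HF.Ctrl mice below the RF.Ctrl mice and all 3 HF.SAAR mice above the RF.SAAR mice.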

How the results depend on the processing

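At 3 mice a group the median standard error of 0.168 limits what could be detected, and few calls passed the adjustment in any fit. Of the 133 genes of the naming rules that were tabulated, 121 kept their direction under each of the 23 alternatives in which they were tested. For HF.Ctrl against RF.Ctrl the fit of 12 mice called 0 genes. Other settings called 1 (library size scaling), 3 (no filter on low counts), 3 (control mice alone), 31 (DESeq2) and 1 (acinar covariate), and leaving out 1 mouse gave 0 to 2. Genes higher at an unadjusted p under 0.05 numbered 121 with library size scaling, against 222. For HF.SAAR against RF.SAAR (8 calls) the counts were 5 (library size scaling), 14 (no filter), 50 (DESeq2), 2 (acinar covariate), 5 (length offsets) and 0 (without the mice high in acinar genes, added after seeing the data), with 1 to 7 on leaving out 1 mouse. For the interaction (1 call) they were 16 (DESeq2), 0 (length offsets) and 0 to 2. The share of the same sign in SAAR mice (62.8%) was 73.3% with the acinar covariate, 58.5% with length offsets and 57.3% to 67.6% on leaving out 1 mouse.

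The other 12, none of them called, changed sign in the log2 fold change. With library size scaling Cpt1a was −0.0574, Alas2 −0.026, Angptl4 −0.026 and Apoe −0.0181, with the acinar covariate Cidec was −0.0573, Cpt1a −0.0237, Angptl4 −0.0936, Pdk4 0.00531 and Apoe −0.00773, and with limma voom Cyp7a1 was 0.552 and G6pc 0.0615. Cpt1a was −0.000342 with at least 10 counts in every mouse, −0.00126 in control mice alone and −0.00621 with length offsets, Angptl4 was −0.00656 with length offsets, and G6pc was 0.000736 with no filter. Without the mice high in acinar genes Cidec was −0.203, Cpt1a −0.0742, Srebf1 0.00771, Angptl4 −0.268 and Apoe −0.138. On leaving out 1 mouse the ranges were −1.30 to 0.805 (Cidea), −0.0593 to 0.430 (Cidec), −0.0762 to 0.122 (Cpt1a), −0.935 to 0.891 (Cyp7a1), −0.639 to 0.480 (Fgf21), −0.390 to 0.609 (G6pc), −0.190 to 0.0753 (Plin2), −0.402 to 0.0696 (Srebf1), −0.0277 to 0.113 (Alas2), −0.216 to 0.377 (Angptl4), −0.344 to 0.120 (Pdk4) and −0.0257 to 0.146 (Apoe). The cause was not tested. No paired analysis was possible because the labels give no replicate numbers, and the numbers used here only name the mice of a group in the order listed.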

Other observations

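Genes of the lobule's zones, in lists written after the data had been seen, differed in opposite directions. Axin2 and Cyp2e1 on the pericentral list were already named above for their small p, and Cps1 and Sds on the periportal list as lower genes. The counts of both lists are thus descriptions and no test of a zonal pattern. Of 20 pericentral genes 18 were higher in HF.Ctrl (median log2 fold change 0.30), and the median was 0.19 in SAAR mice. An unadjusted p under 0.05 was reached by 7 of them, all higher, or 35.0% of the list against 3.56% of all genes. Beside Axin2, Cyp2e1 and Cyp1a2 these included Slc1a2, a glutamate transporter, with 117, 110 and 103 normalized CPM in RF.Ctrl 1 to 3 and 143, 128 and 134 in HF.Ctrl 1 to 3 (0.29, SE 0.11). Glul, the glutamine synthetase of the innermost hepatocytes, had 733, 648 and 626 against 733, 725 and 681 (0.09, SE 0.10), and Lgr5, a receptor that acts in Wnt signalling, differed by 0.31 (SE 0.32), both with overlapping groups. Of 18 periportal genes 16 were lower (median −0.19 in control and 0.08 in SAAR mice), Cps1 and Sds with an unadjusted p under 0.05 (11.1% of the list). Ass1, of the urea cycle, had 2101, 2623 and 2140 against 1942, 2019 and 1661 (−0.29, SE 0.15).

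Of 24 tested retinoid genes, also listed after the data had been seen, 17 were higher and 7 lower (median 0.11). Rarres1 and Cyp26b1 on this list were already named above for their small p, so its counts are descriptions too. At an unadjusted p under 0.05, 3 were higher, Retsat and Rarres1 among them, and 2 lower, Cyp26a1 and Cyp26b1. Together these made 20.8% of the list, against 3.56% of all genes.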
